A study of Mus musculus with 24 samples.

Results

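The comparison set MacB2 against MacA in the lungs of naive mice, meaning control mice that received no tumour cells. MacA-N was sorted as SiglecF+ and CD11c+, the surface phenotype of alveolar macrophages. MacB2-N was sorted as CD11b+, Ly6G-, intermediate for CD64 and CD11c-. The comparison used 6 of the 24 libraries of the study, 3 per group, chosen by these labels alone. Both groups came from male C57BL/6 mice aged 10 to 16 weeks, unmodified as far as the labels say, and for both all lung lobes were perfused, digested and sorted. Each library held cells pooled from 3 to 5 mice, and replicates 1 to 3 were separate experiments, so a library is a pool and not an animal. The other groups used here for reference were MacB1-N, a CD11b+, CD11c+ population with low CD64 from the same kind of mice, and MacA-2wk and MacB2-2wk, sorted as above from the left lobe 2 weeks after Lewis lung carcinoma cells with luciferase were injected into it. All 3 MacA-N libraries were run on lane 1 and MacB2-N replicates 1, 2 and 3 on lanes 2, 3 and 7, so in each comparison of MacB2-N with MacA-N population and lane cannot be told apart. The same holds at 2 weeks, where MacA-2wk was on lane 1 and MacB2-2wk on lanes 2, 3 and 7.

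Alveolar macrophages live in the air spaces, where they take up and break down surfactant, a mixture of phospholipid, cholesterol and protein. Their identity depends on granulocyte-macrophage colony-stimulating factor (GM-CSF) and on the nuclear receptor PPARγ, and they renew themselves by division in place. CD11b+ cells without SiglecF and CD11c lie in the interstitium and vessels, and such a gate can hold monocytes, which enter from blood through the chemokine receptor CCR2, as well as macrophages derived from them.

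Levels are FPKM, fragments per kilobase of transcript scaled to the mapped fragments of the library, and are given for replicates 1, 2 and 3 in that order. Differences are MacB2-N minus MacA-N in log2(FPKM + 1), so the fold of a low gene is understated, with the standard error of the limma fit after the ± sign. A gene was called when its Benjamini-Hochberg adjusted p was under 0.05 and its difference was at least 2-fold. Library sums were 1880236 to 2436031 FPKM in MacA-N and 3028991 to 3783004 in MacB2-N, and protein-coding genes held 24.8% to 27.6% and 18.1% to 21.4% of them. Absolute depth is unknown from FPKM. The steps between low values put the relative depth at 0.787 to 1 in MacA-N and 0.585 to 0.823 in MacB2-N. Pearson correlations of log2 values across genes, which are not independent replicates, were 0.914 to 0.926 within MacA-N, 0.868 to 0.912 within MacB2-N and 0.758 to 0.814 between the groups. MacB2-N replicate 3 stood apart from its group by its markers of endothelium, with a summed level of 1247 FPKM over 20 genes against 433 and 442 in replicates 1 and 2.

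Of 17156 genes tested, 3583 (20.9%) were called, 1838 (10.7%) higher and 1745 (10.2%) lower in MacB2-N. At least 8-fold differences were found in 296 of the higher and 264 of the lower genes, and at least 32-fold differences in 65 and 49. The median difference over all tested genes was 0.03, so the lists described below were read against a centre near 0. In 3437 of the called genes the 3 libraries of a group all lay on the same side of the other 3, and in the other 146 the groups overlapped. Over all tested genes, called or not, the groups were apart in 39.5%. A gene that was not called may still differ. Among the called protein-coding genes named below, the groups overlapped only for Alox5ap and Pttg1. Because these are bulk libraries, fewer cells of a type and less RNA per cell cannot be told apart in any of these values.

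Several programs differed as blocks. In MacB2-N, 18 of 20 tested classical monocyte markers and 39 of 47 antiviral effectors of the interferon response were higher. All 30 alveolar macrophage markers were lower, as were 47 of 59 genes of mitosis, 25 of 40 of DNA replication and 17 of 28 of fatty acid oxidation. Other lists split by member. The scavenger and apoptotic cell receptors gave 10 higher and 10 lower, and cytokines and growth factors 14 and 14. Of 74 genes of oxidative phosphorylation only 5 were called. These and all later list counts are to be read against all tested genes, of which 10.7% were called higher and 10.2% lower. A count near these shares is no result about its list.

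**Figure D1:**
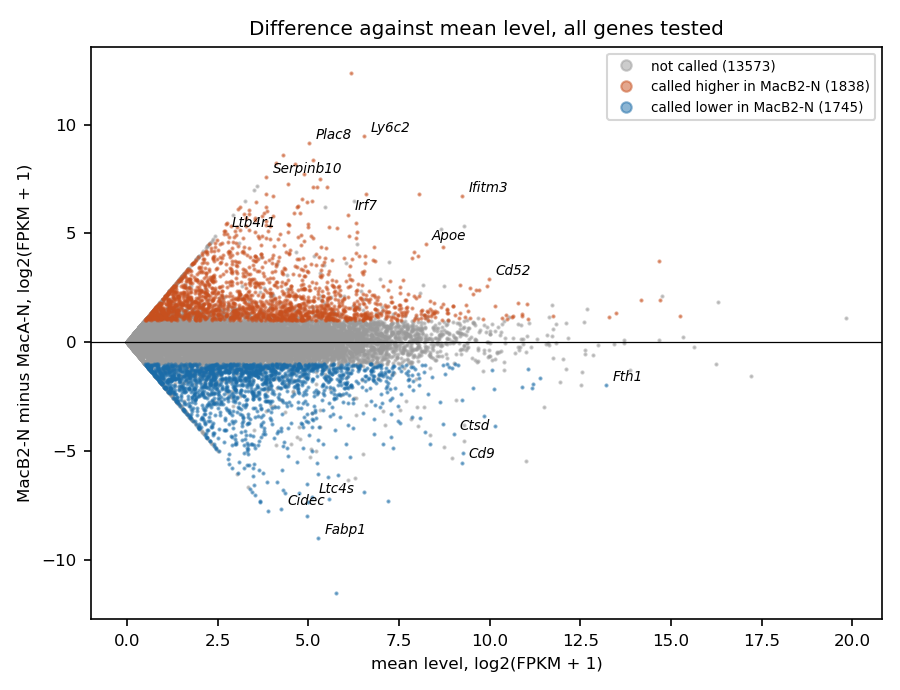
Each point is 1 of the 17156 genes tested, placed by its mean level in log2(FPKM + 1) over both groups (x axis) and by MacB2-N minus MacA-N (y axis), with orange for the 1838 genes called higher, blue for the 1745 called lower and grey for genes not called. Called genes lie on both sides of 0 over the whole range of levels, and labels mark some of those described in the text.

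The transcripts Siglecf, Itgax and Itgam went with the gates. Siglecf (ENSMUSG00000039013, chromosome 7, 43351341 to 43359531, plus strand, GRCm38 in this and all later positions) was at 163, 303 and 228 FPKM in MacA-N and 0.0879, 1.3 and 1.44 in MacB2-N (log2 difference -6.95 ± 0.54, adjusted p = 7.05e-09). Itgam, the αM chain of CD11b (ENSMUSG00000030786, chromosome 7, 128062640 to 128118491, plus strand), was at 1.58, 0.68 and 4.65 FPKM in MacA-N and 303, 342 and 197 in MacB2-N (log2 difference 6.56 ± 0.35, adjusted p = 5.39e-11). Itgax, the αX chain of CD11c, was at 219, 227 and 196 FPKM in MacA-N and 8.81, 5.54 and 7.65 in MacB2-N (log2 difference -4.71 ± 0.24, adjusted p = 2.94e-11). For these genes the groups did not overlap. Fcgr1, which encodes the high-affinity IgG receptor CD64, was at 23.8, 23.7 and 28.5 FPKM in MacA-N and 76, 86.9 and 56.6 in MacB2-N (log2 difference 1.48 ± 0.16, adjusted p = 8.91e-07), and every MacB2-N library lay above every MacA-N library. Ly6g was listed at 0 in all 6 libraries and checks nothing.

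The names of the populations were set against marker lists. These lists were chosen with earlier results of these data known, and that of alveolar macrophages holds the gate gene Siglecf. Their counts thus describe the groups and are no independent check of the names. All 30 tested alveolar macrophage markers were called lower in MacB2-N by limma, and none had a higher level at an unadjusted p under 0.05. Of 20 tested markers of classical monocytes, 18 were higher and 0 lower (0 at an unadjusted p under 0.05), with a median difference of 6.02. Nonclassical monocyte markers were called higher in 13 and lower in 3 of 19, and interstitial macrophage markers in 12 and 3 of 22. MacB2-N thus held transcripts from more than 1 of these programs. The 2 nonclassical markers given next are from those called higher, and the 3 lower ones are not given in this paragraph. Spn, the sialophorin CD43, was at 26.7, 20.5 and 21.2 FPKM in MacA-N and 167, 89.9 and 100.5 in MacB2-N (log2 difference 2.29 ± 0.33, adjusted p = 2.51e-05). Pou2f2, a lymphoid and myeloid transcription factor, was at 0.79, 1.09 and 1.1 FPKM in MacA-N and 73.6, 61 and 60.01 in MacB2-N (log2 difference 5.04 ± 0.44, adjusted p = 4.04e-08). Spn was higher still in MacB1-N, at 303 ± 73.4 FPKM (SD, n = 3), with a log2 difference -1.36, adjusted p = 0.0158. This and later differences given beside a MacB1-N level are MacB2-N minus MacB1-N. Pou2f2 was at 149.7 ± 46.6 FPKM in MacB1-N and its difference from MacB2-N did not pass the test (adjusted p = 0.14).

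Among interstitial macrophage markers, C1qa, a chain of complement C1q, was at 0.36, 0.915 and 1.23 FPKM in MacA-N and 38, 34.3 and 41.3 in MacB2-N (log2 difference 4.43 ± 0.34, adjusted p = 6.69e-09). Stab1, the scavenger receptor stabilin-1, was at 0.411, 2.17 and 1.2 FPKM in MacA-N and 9.55, 34.2 and 44.1 in MacB2-N (log2 difference 3.58 ± 0.61, adjusted p = 0.000149). Csf1r, the receptor for the macrophage growth factor CSF1, was at 71.7, 75 and 67.6 FPKM in MacA-N and 562, 552 and 456 in MacB2-N (log2 difference 2.85 ± 0.25, adjusted p = 4.90e-08), with each MacB2-N library above every MacA-N library. Mrc1, the mannose receptor, and Mertk, a receptor for apoptotic cells, are on the same list and were lower in MacB2-N: Mrc1 was at 357, 291 and 369.8 FPKM in MacA-N and 6.46, 6.55 and 11.1 in MacB2-N (log2 difference -5.27 ± 0.38, adjusted p = 2.98e-09). Mertk was at 146, 116 and 135 FPKM in MacA-N and 1.67, 1.02 and 6.97 in MacB2-N (log2 difference -5.24 ± 0.46, adjusted p = 4.33e-08). Lyve1 and Ms4a7, which mark subsets of interstitial macrophages, were not called, with means of 9.32 ± 7.25 and 3.24 ± 2.85 FPKM in MacB2-N (SD, n = 3).

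The 12 highest and 12 lowest differences of protein-coding genes, among those that averaged 20 FPKM or more in either group, came from genes of several kinds. Ly6c2, the surface marker that defines classical monocytes, Plac8, a small protein of myeloid cells, and Ifitm6, of the interferon-induced membrane proteins, had log2 differences of 9.48, 9.15 and 8.36. Fyb, an adaptor of integrin activation, was at 1.27, 1.95 and 2.84 FPKM in MacA-N and 564, 606 and 447 in MacB2-N (log2 difference 7.50 ± 0.36, adjusted p = 1.29e-11). Plbd1, a phospholipase B-like protein of granules, was at 1.44, 3.73 and 3.98 FPKM in MacA-N and 486, 614 and 510 in MacB2-N (log2 difference 7.11 ± 0.27, adjusted p = 6.83e-13). At the low end, Plet1, a surface glycoprotein, was at 1321, 2634 and 1770.3 FPKM in MacA-N and 11.1, 10.1 and 10.8 in MacB2-N (log2 difference -7.30 ± 0.49, adjusted p = 1.13e-09). Krt79, a keratin, was at 119, 103 and 105 FPKM in MacA-N and 0, 0.0853 and 0.385 in MacB2-N (log2 difference -6.58 ± 0.44, adjusted p = 9.24e-10), and Wfdc21, a secreted protein with a protease inhibitor fold, and the ribonuclease Ear1 had log2 differences of -7.34 and -8.01. Ear1 and Ly6c2 have near-identical copies that can share their reads. Most other genes of this set are given with their pathways.

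**Figure D2:**
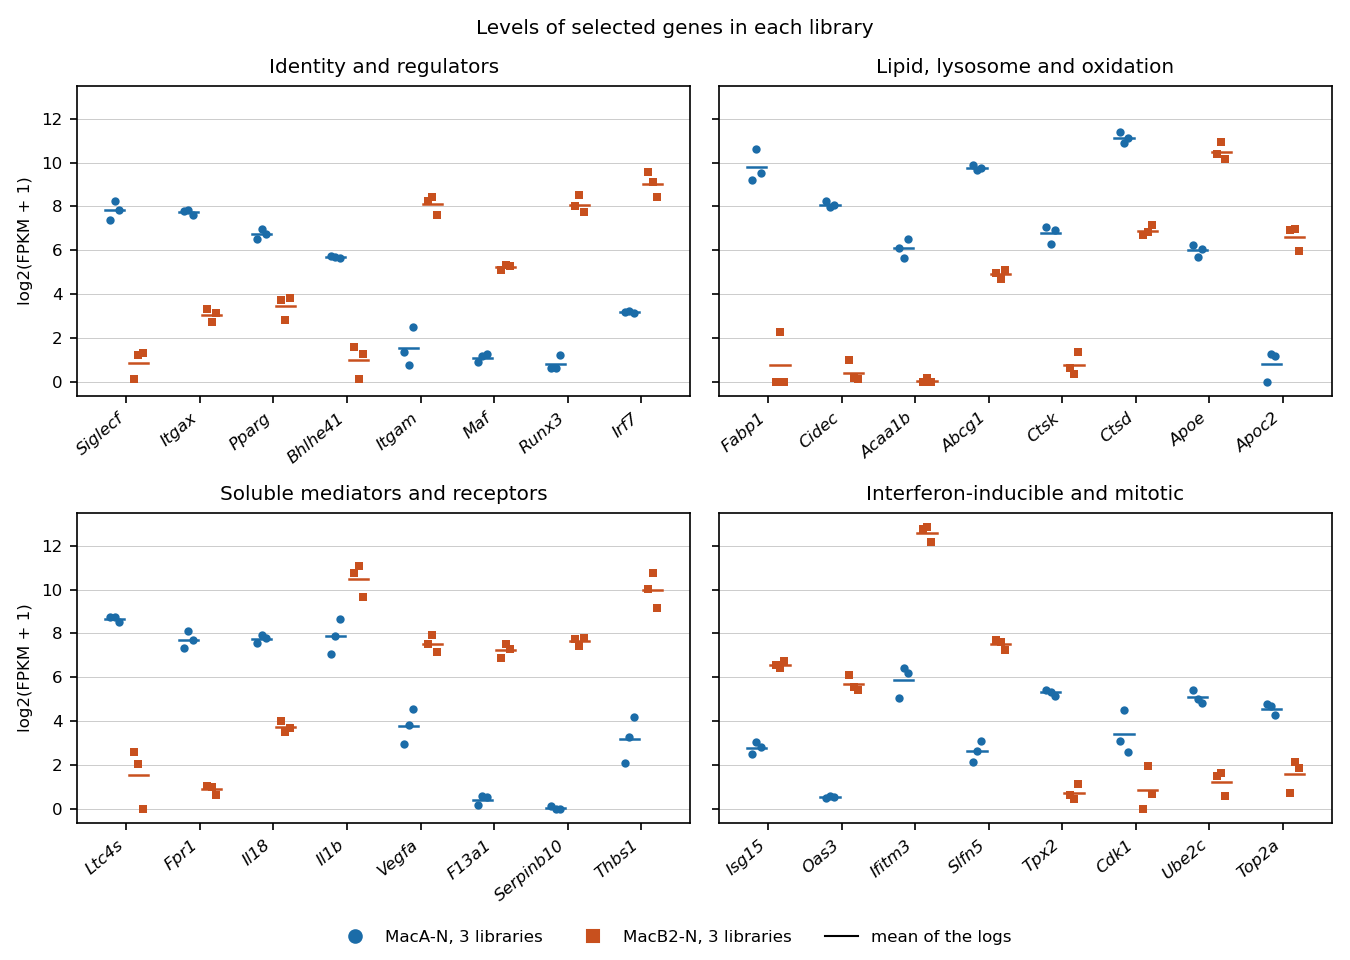
Levels of 32 genes in log2(FPKM + 1) (y axis) in the 3 MacA-N libraries (blue circles) and the 3 MacB2-N libraries (orange squares), in replicate order from the left, with the mean of the logs as a bar. In each of these genes the 3 libraries of a group lie on the same side of the other 3.

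Of 60 tested transcription factors with known roles in myeloid cells, 23 were higher and 12 lower in MacB2-N. Pparg (ENSMUSG00000000440, chromosome 6, 115360951 to 115490399, plus strand), the lipid-sensing nuclear receptor of alveolar macrophages, was at 88.9, 125 and 106 FPKM in MacA-N and 12.4, 6.06 and 13.1 in MacB2-N (log2 difference -3.27 ± 0.32, adjusted p = 1.91e-07). Its partner Rxra was at 155, 129 and 156 FPKM in MacA-N and 46, 40.3 and 39.6 in MacB2-N (log2 difference -1.78 ± 0.20, adjusted p = 1.07e-06). Bhlhe41, a repressor needed for alveolar macrophage self-renewal, was at 52.2, 50.01 and 49.7 FPKM in MacA-N and 1.96, 0.0816 and 1.37 in MacB2-N (log2 difference -4.72 ± 0.40, adjusted p = 2.51e-08), and its relative Bhlhe40 was at 247, 241 and 335 FPKM in MacA-N and 87.1, 67.3 and 104 in MacB2-N (log2 difference -1.67 ± 0.23, adjusted p = 1.35e-05). Every MacB2-N library was below every MacA-N library for both. Tfec and Mitf, members of the same family of lysosomal and pigment-cell regulators, were both lower (-3.76 and -1.69), and their relative Tfeb was not called (95% interval of the difference -0.59 to 0.68). Egr2, a zinc finger factor of alveolar macrophages, was at 501, 892 and 779 FPKM in MacA-N and 21.5, 30.9 and 57.1 in MacB2-N (log2 difference -4.34 ± 0.37, adjusted p = 2.78e-08), whereas its paralog Egr1 was not called (-0.58, 95% interval -1.42 to 0.26) and its groups overlapped. Both Egr2 and Egr1 are also on the list of immediate early genes.

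The factors that were higher included Runx3 (ENSMUSG00000070691, chromosome 4, 135120652 to 135177990, plus strand), a Runt family regulator, at 0.523, 0.52 and 1.31 FPKM in MacA-N and 256, 363 and 212 in MacB2-N (log2 difference 7.28 ± 0.44, adjusted p = 2.82e-10). Its paralog Runx1 was at 194, 155 and 154 FPKM in MacA-N and 111, 96 and 129 in MacB2-N and was not called (-0.58). Maf, a regulator of macrophage differentiation, was at 0.842, 1.22 and 1.39 FPKM in MacA-N and 33.3, 38.6 and 37.4 in MacB2-N (log2 difference 4.13 ± 0.17, adjusted p = 1.79e-12). Ahr, the aryl hydrocarbon receptor, was at 1.53, 1.69 and 2.17 FPKM in MacA-N and 53, 74.3 and 54.1 in MacB2-N (log2 difference 4.45 ± 0.24, adjusted p = 5.38e-11). Nr4a1, the orphan receptor needed for nonclassical monocytes, was at 222, 377 and 479.5 FPKM in MacA-N and 2180.1, 1765 and 1564 in MacB2-N (log2 difference 2.40 ± 0.41, adjusted p = 0.00014). Nr4a1 is also on the list of immediate early genes. Klf2, a zinc finger factor of quiescent monocytes, was also higher (2.26), and Klf4 was not called (0.86, 95% interval 0.08 to 1.63). The general myeloid factors Spi1 and Cebpb, the genes for PU.1 and C/EBPβ, were not called, with 95% intervals of -0.10 to 1.21 and -0.24 to 1.21.

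The GM-CSF receptor differed by subunit. Csf2ra, the chain that binds the cytokine, was at 417, 436 and 381 FPKM in MacA-N and 379.7, 392 and 413 in MacB2-N (95% interval of the difference -0.55 to 0.43). Csf2rb, the signalling chain, was at 148, 136 and 159.9 FPKM in MacA-N and 56.3, 74.4 and 50.1 in MacB2-N (log2 difference -1.30 ± 0.27, adjusted p = 0.001), and Csf2rb2, a near-identical copy with which reads can be shared, was also lower (-1.81). The binding chain Csf2ra thus overlapped between the groups, and the signalling chain Csf2rb was apart. The list of phospholipid and surfactant catabolism had 6 of 24 members higher and 5 lower. Pla2g15, the lysosomal phospholipase A2 that degrades surfactant phospholipid, was at 152, 164 and 151 FPKM in MacA-N and 14.5, 15 and 11.9 in MacB2-N (log2 difference -3.41 ± 0.13, adjusted p = 9.80e-13). Pld3, a phospholipase D family member of the lysosome, was at 437, 528 and 483 FPKM in MacA-N and 36, 71.6 and 43.9 in MacB2-N (log2 difference -3.29 ± 0.28, adjusted p = 2.55e-08). In the other direction, Pla2g7, the secreted hydrolase of platelet-activating factor, was at 1.88, 3.92 and 1.99 FPKM in MacA-N and 139, 122 and 44.8 in MacB2-N (log2 difference 4.73 ± 0.37, adjusted p = 8.80e-09). Lpcat2, which makes platelet-activating factor, was at 4.12, 2.0 and 3.16 FPKM in MacA-N and 24.4, 34 and 22 in MacB2-N (log2 difference 2.78 ± 0.27, adjusted p = 1.52e-07). Napsa, an aspartic protease also known from surfactant protein processing, was at 11.4, 16.9 and 15.3 FPKM in MacA-N and 172, 168 and 108 in MacB2-N (log2 difference 3.27 ± 0.21, adjusted p = 7.58e-10).

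Genes of fatty acid uptake and storage were mostly lower, with 16 of 31 tested members called lower and 2 higher. Of the fatty acid binding proteins, Fabp1 had a log2 difference of -9.03. Fabp5 was at 169, 230.4 and 177 FPKM in MacA-N and 19.9, 17.8 and 13.1 in MacB2-N (log2 difference -3.44 ± 0.36, adjusted p = 4.62e-07). Fabp4 was at 303, 294 and 247 FPKM in MacA-N and 27.1, 26.4 and 31.2 in MacB2-N (log2 difference -3.27 ± 0.32, adjusted p = 1.71e-07). Lpl, lipoprotein lipase, was at 692, 629 and 709 FPKM in MacA-N and 19.7, 34.8 and 22.6 in MacB2-N (log2 difference -4.71 ± 0.45, adjusted p = 1.10e-07). The lipid droplet genes differed in size of change: Cidec and Cideb, which promote droplet growth, had log2 differences of -7.67 and -4.03, while the droplet coat gene Plin2 was at 746, 669 and 771 FPKM in MacA-N and 261, 270.4 and 261 in MacB2-N (log2 difference -1.46 ± 0.18, adjusted p = 4.55e-06). Mgll, monoacylglycerol lipase, was at 58.4, 57.5 and 57.6 FPKM in MacA-N and 2.12, 0.418 and 16.7 in MacB2-N (log2 difference -3.78 ± 0.69, adjusted p = 0.000304). Lipa, the lysosomal acid lipase, was at 259, 329 and 289 FPKM in MacA-N and 63.3, 66.3 and 70.2 in MacB2-N (log2 difference -2.11 ± 0.19, adjusted p = 5.93e-08). Lipe, hormone-sensitive lipase, went the other way, at 2.04, 2.59 and 2.0 FPKM in MacA-N and 13.4, 11.2 and 14.3 in MacB2-N (log2 difference 2.12 ± 0.25, adjusted p = 1.95e-06). The other gene called higher was Fabp3, at 0.163, 0 and 0 FPKM in MacA-N and 2.78, 2.62 and 0.592 in MacB2-N (log2 difference 1.41 ± 0.45, adjusted p = 0.025), and its call was lost without any of MacA-N replicates 2 and 3 and MacB2-N replicates 1 and 2 (differences 1.19 to 1.37, adjusted p 0.0639 to 0.0997).

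Fatty acid oxidation was lower in 17 of 28 tested genes and higher in 0 (0 at an unadjusted p under 0.05), with a median difference of -1.08, and with a pseudocount of 5 FPKM 11 were lower. Enzymes of the peroxisome were among those lower. Acaa1b, a peroxisomal thiolase, was at 68.6, 48.3 and 89.5 FPKM in MacA-N and 0, 0.109 and 0 in MacB2-N (log2 difference -6.03 ± 0.46, adjusted p = 5.42e-09). Ehhadh, the bifunctional enzyme, was at 5.86, 6.45 and 6.08 FPKM in MacA-N and 0.0607, 0.287 and 0 in MacB2-N (log2 difference -2.68 ± 0.28, adjusted p = 3.09e-07). Ech1 was at 118, 161 and 112 FPKM in MacA-N and 23.8, 23.7 and 25 in MacB2-N (log2 difference -2.37 ± 0.21, adjusted p = 5.39e-08). Each had all 3 MacB2-N libraries below the 3 MacA-N libraries. In mitochondria, Acads, a dehydrogenase of short acyl chains, was at 22.5, 24.4 and 23.7 FPKM in MacA-N and 9.01, 4.37 and 9.83 in MacB2-N (log2 difference -1.56 ± 0.27, adjusted p = 0.000203). Slc25a20, the carrier that brings acyl carnitine into the organelle, was at 12.2, 19.9 and 12.4 FPKM in MacA-N and 17.3, 14.6 and 11.9 in MacB2-N (95% interval of the difference -0.47 to 0.47). Pdk4, a kinase that restrains pyruvate oxidation when fat is burned, was at 50.3, 52.8 and 83.6 FPKM in MacA-N and 0.208, 5.56 and 0.222 in MacB2-N (log2 difference -4.85 ± 0.65, adjusted p = 8.95e-06).

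Of 32 tested genes of lipid synthesis 4 were called lower and 1 higher, against 10.2% and 10.7% of all genes tested. Without MacA-N replicate 2 the higher count was 2. Fasn, fatty acid synthase, was at 20.5, 26.1 and 26.3 FPKM in MacA-N and 20.2, 28.4 and 14.6 in MacB2-N (95% interval -0.86 to 0.38). Cyp51, a sterol demethylase, was at 20.3, 31.5 and 17.3 FPKM in MacA-N and 26, 15.3 and 19.9 in MacB2-N (95% interval -0.66 to 0.34). Dhcr7, a late enzyme of cholesterol synthesis, was lower (-1.90 ± 0.30).

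Sterol efflux and trafficking split evenly, with 8 of 25 genes higher and 8 lower. The exporters of cholesterol were lower: Abcg1 was at 943, 799 and 852 FPKM in MacA-N and 29.9, 24.6 and 32.7 in MacB2-N (log2 difference -4.85 ± 0.19, adjusted p = 7.67e-13). Abca1 was at 35.6, 24.5 and 30.7 FPKM in MacA-N and 4.1, 4.15 and 3.7 in MacB2-N (log2 difference -2.64 ± 0.27, adjusted p = 3.13e-07). Npc1, which moves cholesterol out of lysosomes, was lower (-1.97 ± 0.27), and its soluble partner Npc2 was higher (1.22 ± 0.21). The apolipoproteins differed by member. Apoe (ENSMUSG00000002985, chromosome 7, 19696109 to 19699188, minus strand), a carrier of cholesterol, was at 74.3, 50.8 and 64.6 FPKM in MacA-N and 1327, 1947 and 1137 in MacB2-N (log2 difference 4.50 ± 0.42, adjusted p = 8.27e-08), and its neighbour Apoc2, the activator of lipoprotein lipase, was at 0, 1.41 and 1.27 FPKM in MacA-N and 121, 126 and 60.6 in MacB2-N (log2 difference 5.81 ± 0.33, adjusted p = 8.89e-11). Apoc1, which lies in the same gene cluster, was at 25.6, 39 and 29.8 FPKM in MacA-N and 24.3, 42.2 and 22.3 in MacB2-N and was not called (95% interval -1.01 to 0.76). Ch25h, which makes 25-hydroxycholesterol, was lower (-3.75 ± 0.36) and Cyp27a1, which makes 27-hydroxycholesterol, higher (3.11 ± 0.27).

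Lysosomal hydrolases and membrane proteins were called lower in 21 of 56 cases and higher in 5. The cathepsins differed by member. Ctsk, a collagen-degrading cysteine protease, was at 133, 77.8 and 120.3 FPKM in MacA-N and 0.536, 0.253 and 1.52 in MacB2-N (log2 difference -6.00 ± 0.60, adjusted p = 2.16e-07), and Ctsd (ENSMUSG00000007891, chromosome 7, 142375911 to 142388038, minus strand), the main aspartic protease, at 2667, 1921 and 2195 FPKM in MacA-N and 101, 113 and 139 in MacB2-N (log2 difference -4.25 ± 0.30, adjusted p = 2.03e-09). Ctsb was at 388, 306 and 340.4 FPKM in MacA-N and 360.4, 303 and 301 in MacB2-N (95% interval -0.49 to 0.29). Ctse, an aspartic protease of endosomes, was higher, at 0.26, 0.463 and 0.595 FPKM in MacA-N and 51.7, 53.5 and 23.7 in MacB2-N (log2 difference 4.85 ± 0.31, adjusted p = 4.93e-10). The aspartic proteases Ctsd and Ctse thus had opposite signs. Gpnmb, a glycoprotein of lysosomes under lipid load, was at 201, 112 and 144 FPKM in MacA-N and 1.09, 1.38 and 2.19 in MacB2-N (log2 difference -5.89 ± 0.54, adjusted p = 7.48e-08). Acp5, tartrate-resistant acid phosphatase, was at 102, 120.5 and 94.4 FPKM in MacA-N and 20.6, 11.3 and 5.89 in MacB2-N (log2 difference -3.12 ± 0.45, adjusted p = 2.49e-05). Enzymes of glycan breakdown also split: Naglu, which acts on heparan sulfate, was lower (-2.09 ± 0.23), while Sgsh, which acts on the same polymer, was at 1.45, 0.729 and 2.15 FPKM in MacA-N and 32.5, 33.3 and 22.8 in MacB2-N (log2 difference 3.67 ± 0.30, adjusted p = 1.77e-08). Slc11a1, the metal pump Nramp1 of the phagosome, was at 20.9, 7.67 and 10.1 FPKM in MacA-N and 471, 337 and 340.2 in MacB2-N (log2 difference 4.88 ± 0.31, adjusted p = 5.56e-10).

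The proton pump that acidifies these compartments was lower in 7 of 18 subunits, a count that fell to 4 without MacB2-N replicate 3, where 1 subunit was called higher. Atp6v0d2, a subunit with restricted expression, stood apart at 553, 634 and 531 FPKM in MacA-N and 1.17, 1.81 and 8.45 in MacB2-N (log2 difference -7.21 ± 0.61, adjusted p = 2.62e-08). Its widely expressed paralog Atp6v0d1 was at 131, 122 and 126 FPKM in MacA-N and 71.4, 71.9 and 55.1 in MacB2-N and was not called (-0.94 ± 0.14), and it passed, just beyond 2-fold, without MacB2-N replicate 2. Mcoln3, an endolysosomal calcium channel, held 161, 159 and 157 FPKM in MacA-N and is listed at 0 throughout MacB2-N.

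The phagocyte oxidase and antioxidant list had 6 of 38 members higher and 8 lower. Hvcn1, the proton channel that balances charge during the burst, was at 261, 258 and 254 FPKM in MacA-N and 6.25, 2.25 and 6.11 in MacB2-N (log2 difference -5.55 ± 0.37, adjusted p = 8.02e-10). The catalytic subunit Cybb was at 388, 778 and 497 FPKM in MacA-N and 824, 747 and 506 in MacB2-N (95% interval -0.26 to 0.96), and its partner Cyba also did not pass (95% interval -0.38 to 0.58). The cytosolic subunit Ncf4 was higher (1.64 ± 0.27), as was Rac2, the GTPase of the complex (1.34 ± 0.21). Peroxiredoxins had opposite signs, with Prdx1 at 191, 253 and 203 FPKM in MacA-N and 61.8, 44.8 and 43.4 in MacB2-N (log2 difference -2.10 ± 0.25, adjusted p = 2.09e-06). Prdx6 was at 40.9, 52.5 and 58.7 FPKM in MacA-N and 159, 175 and 176 in MacB2-N (log2 difference 1.74 ± 0.26, adjusted p = 2.97e-05). Aldh2, the mitochondrial aldehyde dehydrogenase, was higher (2.04 ± 0.30), and in MacB2-N replicate 3 it was the lowest of its group, at 312 FPKM against 635 and 665.

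Iron and metal handling was called lower in 11 of 26 genes and higher in 5. The ferritin heavy chain Fth1 was at 15896, 19495 and 21092 FPKM in MacA-N and 5179, 6285 and 3359.5 in MacB2-N (log2 difference -1.97 ± 0.34, adjusted p = 0.000183), and the light chain Ftl1 at 6006, 3845 and 4584 FPKM in MacA-N and 1423, 1375 and 1692 in MacB2-N (log2 difference -1.67 ± 0.25, adjusted p = 4.15e-05). Ncoa4, the receptor that sends ferritin to lysosomes, was at 27.2, 54.3 and 37.8 FPKM in MacA-N and 1.03, 1.0 and 2.15 in MacB2-N (log2 difference -4.07 ± 0.50, adjusted p = 3.38e-06). Alas1, the enzyme that opens heme synthesis, was lower (-2.78 ± 0.25), as was Blvra, which reduces the biliverdin formed from heme (-2.62 ± 0.24). Hmox1, the oxidase between them, was not called (95% interval -1.12 to 0.35), and its groups overlapped. The metallothioneins, which bind zinc and copper, were lower, with Mt1 at 1052, 1701 and 1119 FPKM in MacA-N and 69.7, 99.99 and 49.5 in MacB2-N (log2 difference -4.15 ± 0.33, adjusted p = 1.03e-08) and a log2 difference of -4.29 for Mt2. Hp, the hemoglobin-binding haptoglobin, was higher, at 2.99, 10.2 and 8.74 FPKM in MacA-N and 299.9, 336 and 246 in MacB2-N (log2 difference 5.27 ± 0.47, adjusted p = 4.66e-08).

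The list of arachidonate enzymes, their helpers and eicosanoid receptors gave 7 higher and 5 lower members of 26. In the leukotriene branch Alox5, the 5-lipoxygenase, was at 126, 136 and 137 FPKM in MacA-N and 4.71, 8.74 and 11.5 in MacB2-N (log2 difference -3.92 ± 0.30, adjusted p = 5.03e-09), and Ltc4s, which makes leukotriene C4, was at 423, 426 and 365 FPKM in MacA-N and 5.04, 3.12 and 0 in MacB2-N (log2 difference -7.11 ± 0.56, adjusted p = 9.88e-09). Ltb4r1, the receptor for leukotriene B4, was at 0, 0 and 0.351 FPKM in MacA-N and 40.8, 40.2 and 31 in MacB2-N (log2 difference 5.11 ± 0.28, adjusted p = 5.47e-11), so Alox5 and Ltc4s were higher in MacA-N and the receptor in MacB2-N. Alox5ap, which presents arachidonate to Alox5, was called higher, at 20580, 35506 and 23160 FPKM in MacA-N and 75566, 78482 and 35093 in MacB2-N (log2 difference 1.21 ± 0.40, adjusted p = 0.031), with overlapping groups. It did not pass when MacA-N replicate 1 or 3 or MacB2-N replicate 1 or 2 was left out (differences 1.00 to 1.13, adjusted p 0.0963 to 0.113) or with quantile normalization (0.53, adjusted p = 0.34). In the prostaglandin branch Ptgs2, the inducible cyclooxygenase, was at 2.41, 3.96 and 7.09 FPKM in MacA-N and 100, 111 and 79.99 in MacB2-N (log2 difference 4.23 ± 0.35, adjusted p = 1.76e-08). Ptgs1, the constitutive form, was at 10.6, 8.1 and 16.7 FPKM in MacA-N and 10.6, 16.7 and 23.5 in MacB2-N and was not called (0.47 ± 0.35). Hpgd, which inactivates prostaglandins, was higher (2.86 ± 0.41), and Tbxas1, thromboxane synthase, lower (-1.97 ± 0.23).

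Of 27 tested receptors for chemoattractants, 11 were higher and 9 lower. Several of those that were lower recognise bacterial peptides, complement or nucleotides. Fpr1, the high-affinity formyl peptide receptor, was at 159, 272 and 204 FPKM in MacA-N and 1.07, 1.01 and 0.543 in MacB2-N (log2 difference -6.80 ± 0.39, adjusted p = 1.42e-10). Its paralog Fpr2 was at 122, 158 and 120.1 FPKM in MacA-N and 19.2, 19.3 and 25.3 in MacB2-N (log2 difference -2.59 ± 0.27, adjusted p = 3.30e-07). C5ar1, the receptor for C5a, was at 307, 386 and 343 FPKM in MacA-N and 50.8, 64.2 and 35.6 in MacB2-N (log2 difference -2.79 ± 0.23, adjusted p = 2.01e-08), and P2ry14, which senses UDP-sugars, had a log2 difference of -4.70. Cxcr1, a receptor for neutrophil chemokines, held 37.6, 24.6 and 25.2 FPKM in MacA-N and is listed at 0 throughout MacB2-N. Those that were higher included Ccr2 (ENSMUSG00000049103, chromosome 9, 124101950 to 124113557, plus strand), which binds CCL2, at 1.22, 2.38 and 2.69 FPKM in MacA-N and 173, 315 and 198 in MacB2-N (log2 difference 6.20 ± 0.24, adjusted p = 7.67e-13). Cx3cr1, the fractalkine receptor, was at 0.68, 0.756 and 0.873 FPKM in MacA-N and 109, 112 and 99.9 in MacB2-N (log2 difference 5.93 ± 0.21, adjusted p = 5.49e-13). In MacB1-N Ccr2 was at 43.4 ± 11.4 FPKM (log2 difference 2.36, adjusted p = 3.48e-06), and Cx3cr1 at 88.5 ± 15.9 FPKM (log2 difference 0.29, adjusted p = 0.48). Ptafr, the receptor for platelet-activating factor, was at 1.92, 2.07 and 2.72 FPKM in MacA-N and 51.7, 72.6 and 36.8 in MacB2-N (log2 difference 4.03 ± 0.22, adjusted p = 7.10e-11). Cmklr1, the chemerin receptor, was at 12.6, 9.67 and 5.7 FPKM in MacA-N and 65.8, 115 and 116 in MacB2-N (log2 difference 3.29 ± 0.36, adjusted p = 6.81e-07).

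The matching ligands gave 8 higher and 5 lower genes of 28, with 5 higher without MacA-N replicate 1. Cx3cl1, the ligand of Cx3cr1, was lower, at 29.5, 36.6 and 43.8 FPKM in MacA-N and 2.09, 2.81 and 6.93 in MacB2-N (log2 difference -3.04 ± 0.41, adjusted p = 1.13e-05). Ccl22 was at 21.8, 9.75 and 15.4 FPKM in MacA-N and 0.17, 0 and 1.56 in MacB2-N (log2 difference -3.46 ± 0.85, adjusted p = 0.00407), against 266 ± 41.6 FPKM in MacB1-N. Ccl6 was at 3411, 6828 and 4123 FPKM in MacA-N and 1439, 1540.1 and 769 in MacB2-N (log2 difference -1.94 ± 0.31, adjusted p = 7.23e-05). Ccl4 was at 7.08, 16 and 15.7 FPKM in MacA-N and 104, 90.04 and 50.5 in MacB2-N (log2 difference 2.58 ± 0.33, adjusted p = 4.62e-06), whereas Ccl3, its close relative, was at 182, 426 and 361 FPKM in MacA-N and 474, 288 and 285 in MacB2-N (95% interval -0.65 to 0.96).

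Adhesion genes gave 11 higher and 6 lower members of 38. The integrin chains of leukocyte homing differed by member. Itga4, the α4 chain, was at 29.2, 22.5 and 22.6 FPKM in MacA-N and 174, 198 and 208 in MacB2-N (log2 difference 2.92 ± 0.24, adjusted p = 1.31e-08). Itgb7, a partner of α4 in gut homing, was at 2.0, 3.16 and 1.13 FPKM in MacA-N and 95.6, 103 and 51 in MacB2-N (log2 difference 4.75 ± 0.39, adjusted p = 1.59e-08). Itgb1, the other partner of α4, was not called (95% interval -0.72 to -0.03). Cd9, a tetraspanin, was at 3126, 6127 and 3714 FPKM in MacA-N and 88.6, 61.1 and 125 in MacB2-N (log2 difference -5.54 ± 0.29, adjusted p = 3.31e-11). Cd81, another tetraspanin, was at 120.04, 156 and 150.2 FPKM in MacA-N and 29.4, 19.5 and 29.95 in MacB2-N (log2 difference -2.41 ± 0.24, adjusted p = 1.68e-07). Cd52, a small GPI-linked glycoprotein of leukocytes, was at 278, 616 and 291 FPKM in MacA-N and 3714, 3874 and 1449.6 in MacB2-N (log2 difference 2.90 ± 0.34, adjusted p = 1.54e-06).

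Pattern recognition by Toll-like and NOD-like receptors was higher in 13 of 37 genes and lower in 3. Tlr9, the endosomal receptor for CpG DNA, was at 1.62, 0.971 and 1.08 FPKM in MacA-N and 142, 134 and 92.9 in MacB2-N (log2 difference 5.79 ± 0.18, adjusted p = 1.04e-13). Tlr13, which senses bacterial ribosomal RNA, was at 246, 14 and 77 FPKM in MacA-N and 838, 1967 and 628 in MacB2-N (log2 difference 3.94 ± 0.93, adjusted p = 0.00303). Unc93b1, the chaperone that carries both to endosomes, was higher (1.56 ± 0.25). Tlr8, another endosomal receptor, was at 141, 256 and 182 FPKM in MacA-N and 156, 181 and 127 in MacB2-N and was not called (95% interval -0.77 to 0.18). Cd180 and its partner Ly86, which form a surface complex related to TLR4, were both higher, with log2 differences of 2.22 and 4.11. Tlr2, the receptor for bacterial lipoproteins, was lower, at 152, 246 and 249 FPKM in MacA-N and 99.9, 104 and 76.9 in MacB2-N (log2 difference -1.17 ± 0.25, adjusted p = 0.00131). Mefv, the pyrin gene of an inflammasome, was at 0.205, 0.0434 and 0.195 FPKM in MacA-N and 38.3, 51.3 and 49.4 in MacB2-N (log2 difference 5.36 ± 0.22, adjusted p = 1.99e-12). Nod2 was at 2.54, 2.32 and 2.18 FPKM in MacA-N and 22.8, 35 and 22.8 in MacB2-N (log2 difference 3.03 ± 0.28, adjusted p = 6.63e-08).

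C-type lectins were called higher in 7 and lower in 8 of 24. Clec7a, the β-glucan receptor dectin-1, was at 467, 661 and 666 FPKM in MacA-N and 208, 251 and 135 in MacB2-N (log2 difference -1.62 ± 0.24, adjusted p = 2.78e-05). Clec4n, the fungal mannan receptor dectin-2, was at 489, 1224 and 745 FPKM in MacA-N and 83, 104 and 39.1 in MacB2-N (log2 difference -3.43 ± 0.37, adjusted p = 5.33e-07). Clec4e, the mycobacterial glycolipid receptor Mincle, which lies in the same gene cluster as Clec4n, had the opposite sign, at 35.1, 153 and 79 FPKM in MacA-N and 359, 447 and 201 in MacB2-N (log2 difference 2.07 ± 0.49, adjusted p = 0.00321). Clec4a1 was at 2.44, 2.07 and 2.95 FPKM in MacA-N and 249, 198 and 199 in MacB2-N (log2 difference 5.95 ± 0.32, adjusted p = 4.85e-11). Ly75, the endocytic receptor DEC-205, was at 87.2, 65.8 and 67.1 FPKM in MacA-N and 0.522, 0.0822 and 0.875 in MacB2-N (log2 difference -5.66 ± 0.39, adjusted p = 1.36e-09).

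Receptors for modified lipoprotein and dying cells split evenly, with 10 higher and 10 lower of 31. Marco, the collagenous receptor of alveolar macrophages, was at 414, 258 and 247 FPKM in MacA-N and 0.864, 0.726 and 3.41 in MacB2-N (log2 difference -6.95 ± 0.82, adjusted p = 2.00e-06). Msr1, another class A receptor, was at 2.92, 4.32 and 3.34 FPKM in MacA-N and 32.1, 60.2 and 31.2 in MacB2-N (log2 difference 3.17 ± 0.40, adjusted p = 4.32e-06). Marco and Msr1 thus had opposite signs. Axl, a receptor for apoptotic cells in the family of Mertk, was at 616, 622 and 624 FPKM in MacA-N and 81, 22.3 and 65.9 in MacB2-N (log2 difference -3.63 ± 0.35, adjusted p = 1.25e-07), and its bridging ligand Pros1 was lower (-2.15 ± 0.28), while the other ligand Gas6 was higher at a low level (3.99 ± 0.971 FPKM in MacB2-N). Olr1, the receptor for oxidised lipoprotein, was at 1429, 1880.1 and 1681 FPKM in MacA-N and 131, 22.5 and 85.2 in MacB2-N (log2 difference -4.68 ± 0.47, adjusted p = 2.02e-07). Cd300a, a phosphatidylserine receptor, was at 25.9, 27.3 and 17.7 FPKM in MacA-N and 523, 451 and 219 in MacB2-N (log2 difference 3.95 ± 0.30, adjusted p = 6.08e-09). Fcgrt, the neonatal Fc receptor that recycles IgG, was at 125, 124 and 123 FPKM in MacA-N and 16.4, 14.5 and 19.4 in MacB2-N (log2 difference -2.82 ± 0.14, adjusted p = 2.44e-11). Fcgr3, which binds immune complexes, was not called (95% interval -0.22 to 0.51).

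Complement genes were called higher in 9 and lower in 5 of 22. C3, the central component, was at 34.8, 46.9 and 44 FPKM in MacA-N and 229, 141 and 232 in MacB2-N (log2 difference 2.21 ± 0.46, adjusted p = 0.00114). The receptors C5ar1 and C5ar2 were lower (-2.79 and -2.30), and C3ar1, the receptor for C3a, was higher at a mean of 4.67 ± 1.01 FPKM in MacB2-N (2.15 ± 0.32). Cfp, properdin, was not called (95% interval -0.63 to 0.29).

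**Figure D3:**
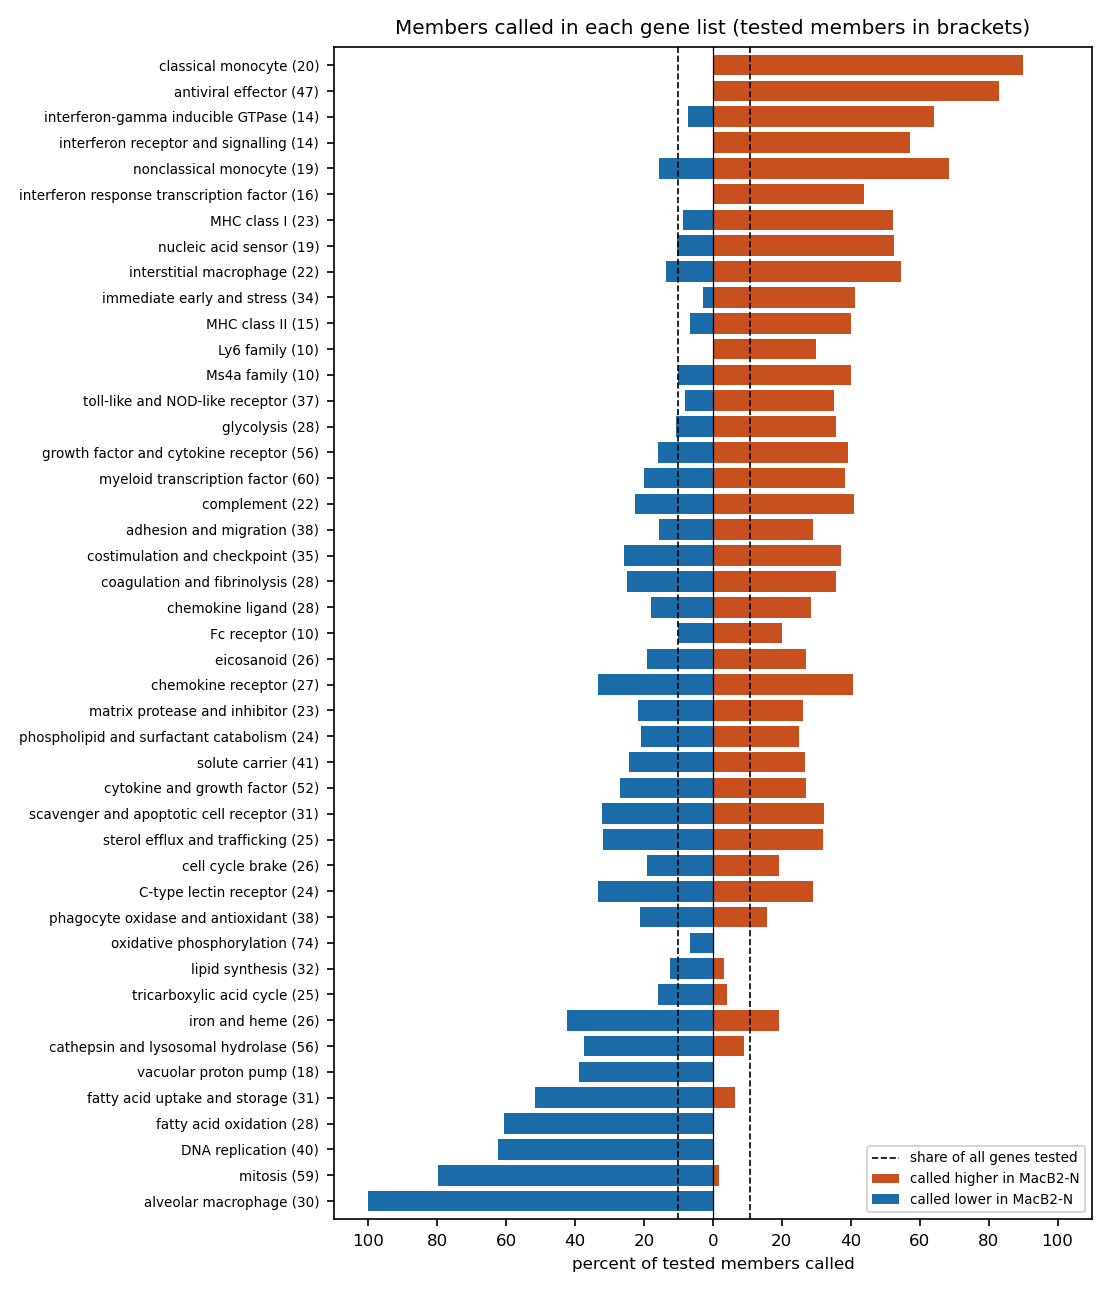
For each gene list with a role in these cells (y axis, tested members in brackets), the percent of tested members called higher (orange, to the right) and lower (blue, to the left) in MacB2-N. Dashed lines mark the shares of all tested genes called higher, 10.7%, and lower, 10.2%, and the lists at the top and bottom depart from them in 1 direction each.

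Type I interferon binds IFNAR, which drives a complex of STAT proteins and IRF9 to the interferon-stimulated response element (ISRE) in target promoters. Of 14 tested receptors and signal proteins 8 were higher and 0 lower (1 at an unadjusted p under 0.05), with 1 lower without MacA-N replicate 3 or MacB2-N replicate 1 or 3. The list is not limited to type I signalling, and the 8 include the interferon γ receptor chains Ifngr1 and Ifngr2, Il10rb, and the inhibitors Socs1, Socs3 and Usp18. The kinases Jak1, Jak2 and Tyk2 were not called (0.93, 0.97 and 0.56). Of 16 tested transcription factors of the response, 7 were higher and 0 lower (0 at an unadjusted p under 0.05). The receptor chains were Ifnar1, at 10.4, 11.3 and 8.61 FPKM in MacA-N and 38, 47.6 and 36.9 in MacB2-N (log2 difference 1.92 ± 0.19, adjusted p = 1.68e-07), Ifnar2 (1.79 ± 0.22), Ifngr1 (1.72 ± 0.19) and Ifngr2 (1.67 ± 0.31). Usp18, which restrains signalling at IFNAR2, held 19.4, 10.7 and 10.1 FPKM in MacB2-N and is listed at 0 throughout MacA-N. Among the factors, Irf7 (ENSMUSG00000025498, chromosome 7, 141262706 to 141266481, minus strand), the amplifier of the response, was at 7.94, 8.24 and 7.87 FPKM in MacA-N and 757, 550.3 and 342 in MacB2-N (log2 difference 5.86 ± 0.35, adjusted p = 2.33e-10). Irf9 was at 10.9, 19.8 and 5.84 FPKM in MacA-N and 99.3, 70.1 and 37.5 in MacB2-N (log2 difference 2.45 ± 0.38, adjusted p = 5.07e-05). Irf3, which is active without new transcription, was not called (95% interval -0.43 to 0.40). Neither was Stat2, whose difference was under 2-fold (0.88 ± 0.21).

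Sensors of nucleic acid were higher in 10 and lower in 2 of 19 tested genes, with 1 lower without MacA-N replicate 2 or 3 or MacB2-N replicate 1 or 2. The cytosolic RNA sensor Ifih1 was at 17.3, 23 and 20.5 FPKM in MacA-N and 67, 53.6 and 46.2 in MacB2-N (log2 difference 1.40 ± 0.22, adjusted p = 4.52e-05). Zbp1, which binds left-handed nucleic acid, was at 5.85, 15.8 and 12.7 FPKM in MacA-N and 240.2, 173 and 113 in MacB2-N (log2 difference 3.85 ± 0.35, adjusted p = 7.26e-08). Mavs, the adaptor downstream of Ifih1, was lower, at 63.7, 59.2 and 55.8 FPKM in MacA-N and 10.8, 10.6 and 11.2 in MacB2-N (log2 difference -2.35 ± 0.15, adjusted p = 8.02e-10), so sensor and adaptor had opposite signs. Aim2, a sensor of cytosolic DNA, was not called (95% interval -1.01 to 0.39).

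Of 47 tested antiviral effectors, 39 were higher and 0 lower (0 at an unadjusted p under 0.05), with a median difference of 2.46. Isg15, a ubiquitin-like modifier, was at 4.56, 7.19 and 6.04 FPKM in MacA-N and 93.8, 83.4 and 107 in MacB2-N (log2 difference 3.80 ± 0.30, adjusted p = 9.86e-09). Oas3, which makes the activator of RNase L, was at 0.398, 0.478 and 0.43 FPKM in MacA-N and 66.8, 46 and 41.9 in MacB2-N (log2 difference 5.17 ± 0.29, adjusted p = 7.57e-11). Ifit1, which binds foreign RNA caps, was at 1.83, 0.777 and 0.977 FPKM in MacA-N and 10.2, 9.55 and 13.5 in MacB2-N (log2 difference 2.47 ± 0.36, adjusted p = 2.27e-05), so its level was lower than that of Isg15 in every MacB2-N library. The membrane proteins that block viral entry were led by Ifitm3, at 32.3, 84.6 and 71.9 FPKM in MacA-N and 6871, 7392 and 4561 in MacB2-N (log2 difference 6.70 ± 0.48, adjusted p = 2.87e-09). Slfn5, of the Schlafen family, was at 3.42, 5.27 and 7.44 FPKM in MacA-N and 208, 192 and 152 in MacB2-N (log2 difference 4.90 ± 0.21, adjusted p = 2.29e-12), with near-identical family members that can share reads. In MacB1-N the means were 15.8 ± 1.95 FPKM for Isg15 (log2 difference 2.51, adjusted p = 2.18e-05), 11.3 ± 6.09 FPKM for Oas3 (log2 difference 2.18, adjusted p = 5.80e-05) and 39.4 ± 8.99 FPKM for Slfn5 (log2 difference 2.20, adjusted p = 1.15e-06). Trim25, Lgals3bp and Ube2l6, also on the list, were not called, with 95% intervals of -0.17 to 0.94, -0.41 to 0.84 and -0.44 to 1.09.

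Promoters of these genes were read from RefSeq (GRCm38.p6), from 250 bases before to 50 after each start, for the core ISRE, taken as GAAA, any 2 bases and GAAA again, on both strands. Of the 39 effectors called higher, 30 had a promoter in the table and 15 of those held the motif, against 1079 of 27025 genes with a promoter (3.99%). Among protein-coding genes, 86 of 1170 called higher (7.35%), 37 of 1218 called lower (3.04%) and 279 of 7856 not called (3.55%) held it. Most genes called higher thus lacked this exact motif in the window. A match is a description of the letters and not evidence of binding. The 150 bases before the start are shown 5′ to 3′ on the gene's strand for 3 effectors whose levels are given above, with every match in capitals, because they show 3 arrangements of the motif.
Isg15: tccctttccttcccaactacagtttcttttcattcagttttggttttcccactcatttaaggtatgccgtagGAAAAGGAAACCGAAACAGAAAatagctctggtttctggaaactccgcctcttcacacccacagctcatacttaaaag
Ifit1: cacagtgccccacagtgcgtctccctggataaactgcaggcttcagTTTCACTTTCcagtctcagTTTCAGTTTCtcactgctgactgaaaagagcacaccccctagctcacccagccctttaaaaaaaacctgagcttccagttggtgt
Oas3: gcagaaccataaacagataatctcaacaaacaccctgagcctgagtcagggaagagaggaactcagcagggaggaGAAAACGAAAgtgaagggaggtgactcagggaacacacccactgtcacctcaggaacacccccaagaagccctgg
The Isg15 stretch lies at chr4:156200819-156200968 on the minus strand and holds 3 overlapping matches. The Ifit1 stretch lies at chr19:34640739-34640888 on the plus strand and holds 2, both as the reverse complement. The Oas3 stretch lies at chr5:120777660-120777809 on the minus strand and holds 1.

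Targets of interferon γ were called higher in 9 of 14 tested GTPases and lower in 1. Gbp3 was at 1.48, 0.974 and 5.04 FPKM in MacA-N and 38.2, 35.2 and 26.6 in MacB2-N (log2 difference 3.46 ± 0.32, adjusted p = 7.90e-08). Irgm1, which regulates autophagy of microbes, was at 14.9, 18.9 and 11.6 FPKM in MacA-N and 53.1, 49.7 and 58.1 in MacB2-N (log2 difference 1.78 ± 0.21, adjusted p = 2.40e-06). Gbp8 was lower, at 6.0, 4.07 and 6.05 FPKM in MacA-N and 0.0758, 0 and 0.166 in MacB2-N (log2 difference -2.55 ± 0.43, adjusted p = 0.000147). The guanylate-binding genes are close copies, so their single levels are uncertain.

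Antigen presentation by MHC class I was higher in 12 of 23 genes and lower in 2, 1 without MacB2-N replicate 3. B2m, the invariant light chain, was at 4911, 10489 and 6047 FPKM in MacA-N and 18609, 14519 and 12604 in MacB2-N (log2 difference 1.15 ± 0.29, adjusted p = 0.00564), and its difference fell under 2-fold without MacA-N replicate 1 (0.92) or MacB2-N replicate 1 (0.997). Nlrc5, the transactivator of class I genes, was at 1.05, 0.282 and 0.541 FPKM in MacA-N and 8.83, 9.32 and 9.69 in MacB2-N (log2 difference 2.69 ± 0.30, adjusted p = 1.13e-06). Tap1, a chain of the peptide pump, was at 14.9, 15.5 and 9.5 FPKM in MacA-N and 74.3, 79.7 and 65.9 in MacB2-N (log2 difference 2.40 ± 0.24, adjusted p = 2.87e-07). Its partner Tap2 was not called (95% interval -0.61 to 0.45). The chaperone Calr was lower (-1.18 ± 0.16).

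MHC class II genes were higher in 6 of 15, and 1, H2-DMb2, was lower (-1.37 ± 0.48), with its call lost without MacA-N replicate 2 or 3 or MacB2-N replicate 2 or 3 (differences -1.38 to -1.10, adjusted p 0.0734 to 0.143). H2-Ab1, a β chain, was at 347, 495 and 408 FPKM in MacA-N and 1148, 1549 and 782 in MacB2-N (log2 difference 1.43 ± 0.32, adjusted p = 0.0019). Cd74, the invariant chain, was at 942, 1822 and 1029 FPKM in MacA-N and 2941, 3169 and 2772 in MacB2-N (log2 difference 1.29 ± 0.34, adjusted p = 0.00638). Both were lower in MacB2-N than in MacB1-N, where H2-Ab1 was at 4459.7 ± 359.6 FPKM (log2 difference -1.99, adjusted p = 0.000441) and Cd74 at 10941 ± 3040.1 FPKM (log2 difference -1.85, adjusted p = 0.00145). H2-DMa, which loads peptide, was not called (95% interval -0.92 to 0.00). Costimulatory and checkpoint genes were called higher in 13 and lower in 9 of 35. Cd86, a ligand of CD28, was at 15.3, 19.7 and 17.7 FPKM in MacA-N and 102, 115 and 101 in MacB2-N (log2 difference 2.53 ± 0.23, adjusted p = 5.45e-08). Cd40, the receptor for T-cell help, was at 0, 4.99 and 0.585 FPKM in MacA-N and 39.96, 51.2 and 27.2 in MacB2-N (log2 difference 4.21 ± 0.52, adjusted p = 3.19e-06). Cd274, the inhibitory ligand PD-L1, was lower, at 68, 50.4 and 68.6 FPKM in MacA-N and 7.64, 4.72 and 10.7 in MacB2-N (log2 difference -2.91 ± 0.26, adjusted p = 4.59e-08), as was the inhibitory receptor Cd200r1, at 25.8, 34 and 32.5 FPKM in MacA-N and 1.96, 1.44 and 3.52 in MacB2-N (log2 difference -3.31 ± 0.36, adjusted p = 5.99e-07). Tnfsf9, the ligand of 4-1BB, was at 3.03, 2.11 and 1.45 FPKM in MacA-N and 41.4, 58.9 and 55.9 in MacB2-N (log2 difference 4.07 ± 0.30, adjusted p = 3.07e-09).

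Genes of DNA replication were called lower in 25 of 40 and genes of mitosis in 47 of 59, with 0 and 1 higher (1 and 3 at an unadjusted p under 0.05). With a pseudocount of 5 FPKM, which weighs down low genes, 13 and 27 were lower. In replication, the helicase subunit Mcm6 was at 17.8, 17.6 and 16.5 FPKM in MacA-N and 2.98, 1.44 and 2.66 in MacB2-N (log2 difference -2.48 ± 0.26, adjusted p = 3.59e-07). Gins2, its cofactor, was at 25.2, 24 and 19.9 FPKM in MacA-N and 0.953, 1.81 and 1.34 in MacB2-N (log2 difference -3.35 ± 0.36, adjusted p = 5.80e-07). Rrm2, the inducible ribonucleotide reductase subunit, was at 16.2, 13.6 and 8.95 FPKM in MacA-N and 2.08, 2.95 and 1.9 in MacB2-N (log2 difference -2.05 ± 0.32, adjusted p = 6.70e-05). Pcna, the polymerase clamp, which is also used in repair, was at 98.9, 176 and 109 FPKM in MacA-N and 114, 100.4 and 84.4 in MacB2-N (95% interval -0.73 to 0.08). In mitosis, Tpx2, a spindle assembly factor, was at 42.3, 39.3 and 34.7 FPKM in MacA-N and 0.544, 0.344 and 1.15 in MacB2-N (log2 difference -4.59 ± 0.42, adjusted p = 7.13e-08), and Cdk1 (ENSMUSG00000019942, chromosome 10, 69335146 to 69352938, minus strand), the mitotic kinase, at 7.61, 21.8 and 5.03 FPKM in MacA-N and 0, 2.86 and 0.58 in MacB2-N (log2 difference -2.53 ± 0.56, adjusted p = 0.00175). Ube2c, which feeds ubiquitin to the anaphase-promoting complex, was at 42.2, 31.3 and 27 FPKM in MacA-N and 1.8, 2.13 and 0.48 in MacB2-N (log2 difference -3.85 ± 0.31, adjusted p = 1.34e-08). Top2a, the topoisomerase of dividing cells, was at 26.1, 24.6 and 18.2 FPKM in MacA-N and 0.63, 3.31 and 2.64 in MacB2-N (log2 difference -3.01 ± 0.34, adjusted p = 9.29e-07). For these 4 mitotic genes every MacB2-N library was below every MacA-N library, and the MacA-N libraries themselves held 5.03 to 42.3 FPKM. The single mitotic gene called higher, Pttg1, was at 16.2, 46.3 and 34.2 FPKM in MacA-N and 43.8, 80.3 and 69.2 in MacB2-N, its groups overlapped, and its call was lost without any of MacA-N replicates 1 and 3 and MacB2-N replicates 2 and 3 (differences 0.64 to 1.15, adjusted p 0.0519 to 0.226). Without MacA-N replicate 2 there were 2 such genes, and without MacA-N replicate 1 a replication gene was called higher.

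The controllers of the cycle went both ways. On the list of cyclins, kinases and inhibitors around the entry to the cycle 5 of 26 genes were higher, 3 without MacB2-N replicate 1, and 5 lower. The D cyclins split by member: Ccnd2 was at 84.4, 68.1 and 79 FPKM in MacA-N and 2.39, 2.64 and 7.13 in MacB2-N (log2 difference -4.07 ± 0.25, adjusted p = 3.55e-10). Ccnd3 was at 28.3, 28.9 and 26.9 FPKM in MacA-N and 138, 109 and 89.3 in MacB2-N (log2 difference 1.94 ± 0.21, adjusted p = 6.53e-07). Btg1, an antiproliferative factor, was at 67.5, 98.3 and 85.5 FPKM in MacA-N and 353, 381 and 199 in MacB2-N (log2 difference 1.84 ± 0.23, adjusted p = 4.64e-06). E2f1, which activates replication genes, was at 21.2, 18.4 and 18.4 FPKM in MacA-N and 3.22, 5.45 and 7.35 in MacB2-N (log2 difference -1.74 ± 0.24, adjusted p = 1.07e-05). Cdkn1a, the inhibitor p21, was not called (0.61 ± 0.26).

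Promoters of the mitotic genes are known for the cell cycle homology region (CHR), written TTTGAA, and the CCAAT box. Of the 47 mitotic genes called lower, 38 had a RefSeq promoter, of which 26 (68.4%) held TTTGAA and 27 (71.1%) held CCAAT on either strand, against 20.2% and 41.1% of all genes. Of the 25 replication genes called lower 20 had a promoter, and 2 (10.0%) held TTTGAA. The E2F site TTTGGCGC was in 5 of these 20 (25.0%), against 0.585% of all genes and 1 of the 38 mitotic genes (2.63%). The lists were drawn up by function, so these shares describe cell cycle genes as such, whichever way they differ here. The stretches of 150 bases before the start of 3 genes given above are shown in the same form, with TTTGAA and CCAAT or their reverse complements in capitals.
Cdk1: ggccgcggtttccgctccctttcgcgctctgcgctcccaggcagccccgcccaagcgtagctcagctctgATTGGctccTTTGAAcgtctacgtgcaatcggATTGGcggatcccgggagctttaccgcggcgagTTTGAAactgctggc
Ube2c: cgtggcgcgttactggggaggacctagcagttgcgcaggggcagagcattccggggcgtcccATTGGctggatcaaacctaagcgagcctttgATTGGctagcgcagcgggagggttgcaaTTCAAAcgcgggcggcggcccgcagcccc
Top2a: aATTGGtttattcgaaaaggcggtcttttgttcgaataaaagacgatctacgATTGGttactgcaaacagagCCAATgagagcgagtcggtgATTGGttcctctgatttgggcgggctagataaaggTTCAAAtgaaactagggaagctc
The Cdk1 stretch lies at chr10:69352913-69353062 on the minus strand, with 2 matches to TTTGAA and 2 to CCAAT. The Ube2c stretch lies at chr2:164769779-164769928 on the plus strand, with 1 and 2. The Top2a stretch lies at chr11:99024190-99024339 on the minus strand, with 1 and 4.

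Receptors for cytokines and growth factors were called higher in 22 and lower in 9 of 56. Il10ra, which binds interleukin 10, was at 23, 19.9 and 24.6 FPKM in MacA-N and 153, 151 and 119.98 in MacB2-N (log2 difference 2.60 ± 0.22, adjusted p = 3.19e-08). Tnfrsf14, the receptor for LIGHT, was at 0, 4.11 and 1.81 FPKM in MacA-N and 102, 175 and 49.3 in MacB2-N (log2 difference 5.32 ± 0.58, adjusted p = 6.53e-07), and its ligand Tnfsf14 was higher too (2.91 ± 0.24). Receptors for transforming growth factor β, a signal that alveolar macrophages need, were lower: Tgfbr1 was at 95.9, 94.3 and 94.3 FPKM in MacA-N and 32.7, 30.3 and 36.6 in MacB2-N (log2 difference -1.49 ± 0.19, adjusted p = 3.92e-06). Tgfbr2 was at 94.6, 77.1 and 93.4 FPKM in MacA-N and 23.3, 21.7 and 29.1 in MacB2-N (log2 difference -1.80 ± 0.16, adjusted p = 5.93e-08). Il6st and Il4ra, chains shared by many cytokines, were not called, with 95% intervals of -0.66 to 0.07 and -0.66 to 0.18.

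Cytokines and growth factors split evenly, with 14 of 52 higher and 14 lower. The interleukin 1 family divided by member. Il1b was at 134, 238 and 402 FPKM in MacA-N and 1702, 2141 and 819.8 in MacB2-N (log2 difference 2.62 ± 0.46, adjusted p = 0.000214), while Il1a was at 47.6, 54.2 and 80.6 FPKM in MacA-N and 2.26, 2.31 and 2.18 in MacB2-N (log2 difference -4.21 ± 0.50, adjusted p = 2.24e-06). Il18 was at 187, 241 and 221 FPKM in MacA-N and 15.2, 10.1 and 11.8 in MacB2-N (log2 difference -4.03 ± 0.35, adjusted p = 2.93e-08). Il1rn, the antagonist of Il1a and Il1b, was also lower (-2.92 ± 0.31). Growth factors for vessels divided as well: Vegfa was at 6.8, 12.9 and 22 FPKM in MacA-N and 183, 245 and 139 in MacB2-N (log2 difference 3.77 ± 0.37, adjusted p = 1.46e-07). Vegfb was at 17.7, 14.1 and 14.8 FPKM in MacA-N and 2.95, 0.601 and 2.26 in MacB2-N (log2 difference -2.59 ± 0.32, adjusted p = 3.12e-06). Pdgfc, a mitogen of stromal cells, was at 13.5, 13.6 and 13.7 FPKM in MacA-N and 0.131, 0.535 and 0.11 in MacB2-N (log2 difference -3.55 ± 0.24, adjusted p = 9.55e-10). Igf1 was at 44.8, 15.3 and 26.9 FPKM in MacA-N and 2.12, 6.91 and 2.76 in MacB2-N (log2 difference -2.60 ± 0.55, adjusted p = 0.00124). Spp1, the secreted phosphoprotein osteopontin, was at 155, 149 and 163 FPKM in MacA-N and 2.5, 2.62 and 11.1 in MacB2-N (log2 difference -4.87 ± 0.45, adjusted p = 8.47e-08). Chil3, a chitinase-like protein abundant in alveolar macrophages, was at 4343, 4652 and 4045 FPKM in MacA-N and 200.2, 278 and 457 in MacB2-N (log2 difference -3.88 ± 0.58, adjusted p = 3.26e-05). Gdf15, a stress-induced factor, was also lower (-4.18 ± 0.37). Csf1, the ligand of Csf1r, was higher at 2.81, 3.36 and 2.43 FPKM in MacA-N and 15.5, 19.4 and 18.9 in MacB2-N (log2 difference 2.29 ± 0.42, adjusted p = 0.000311), so both ligand and receptor were higher in MacB2-N.

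Genes of coagulation and fibrinolysis were called higher in 10 and lower in 7 of 28. F7, factor VII, was at 371, 253 and 317 FPKM in MacA-N and 3.92, 1.62 and 6.89 in MacB2-N (log2 difference -6.06 ± 0.53, adjusted p = 3.81e-08). F13a1, which crosslinks fibrin, was at 0.109, 0.487 and 0.436 FPKM in MacA-N and 118, 185 and 157 in MacB2-N (log2 difference 6.83 ± 0.26, adjusted p = 6.83e-13). F5, factor V, was at 0.11, 0.105 and 0.205 FPKM in MacA-N and 17.1, 23.8 and 13.6 in MacB2-N (log2 difference 4.04 ± 0.35, adjusted p = 2.83e-08). F10, factor X, was not called (-0.47 ± 0.31). Serpinb2, an inhibitor of plasminogen activation, was at 2.88, 5.48 and 0 FPKM in MacA-N and 634, 665 and 169 in MacB2-N (log2 difference 7.15 ± 0.69, adjusted p = 1.36e-07). Serpinb10, a leukocyte serpin, was at 0.101, 0 and 0 FPKM in MacA-N and 212, 171 and 217 in MacB2-N (log2 difference 7.59 ± 0.26, adjusted p = 5.12e-13). Thbs1, the matrix glycoprotein thrombospondin-1, was at 3.24, 8.57 and 16.9 FPKM in MacA-N and 1029, 1755 and 574 in MacB2-N (log2 difference 6.82 ± 0.55, adjusted p = 1.20e-08). Thbd, the thrombin cofactor thrombomodulin, was at 45.6, 59.9 and 70.4 FPKM in MacA-N and 219, 216 and 309 in MacB2-N (log2 difference 2.06 ± 0.24, adjusted p = 1.43e-06). Thbd is also an endothelial gene, and MacB2-N replicate 3, highest in endothelial markers, was its highest library. Thbs1, F13a1 and F5 are also platelet transcripts, and of 9 tested platelet markers 2 were higher and 1 lower, with 1 higher without MacA-N replicate 2 or 3 or MacB2-N replicate 1 or 3. Pf4, platelet factor 4, was at 4.5, 3.36 and 1.51 FPKM in MacA-N and 27.6, 11.1 and 10.9 in MacB2-N (log2 difference 2.03 ± 0.47, adjusted p = 0.00245). Summed over 12 platelet markers, levels were 45.7 to 52 FPKM in MacA-N and 17.4 to 46 in MacB2-N, with 37.9 to 42.6 FPKM of the MacA-N sums from Clec1b, which was lower in MacB2-N (-4.67 ± 0.58). In a library 0 to 5 of the 12 were listed at 0. The part of platelet RNA in these genes was not tested.

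Matrix proteases and inhibitors were called higher in 6 of 23 genes, 3 without MacB2-N replicate 1, and lower in 5. Mmp19 was at 59.3, 61.7 and 80.6 FPKM in MacA-N and 9.06, 13.9 and 5.77 in MacB2-N (log2 difference -2.75 ± 0.33, adjusted p = 2.09e-06). Mmp12, the macrophage elastase, was at 4.26, 14.5 and 11 FPKM in MacA-N and 0.87, 0.802 and 0.869 in MacB2-N (log2 difference -2.43 ± 0.52, adjusted p = 0.0013). Adam8, a surface protease of activated leukocytes, was at 2.1, 1.83 and 1.97 FPKM in MacA-N and 42.1, 63.4 and 32.8 in MacB2-N (log2 difference 3.94 ± 0.28, adjusted p = 2.06e-09). Prtn3, a granule protease of neutrophils and monocyte precursors, held 9.61, 24.1 and 5.74 FPKM in MacB2-N and is listed at 0 throughout MacA-N.

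Glycolysis was called higher in 10 of 28 genes and lower in 3. The sugar transporter Slc2a1 was at 14.3, 43.3 and 22.7 FPKM in MacA-N and 137, 142 and 68.8 in MacB2-N (log2 difference 2.14 ± 0.41, adjusted p = 0.00046). Its relative Slc2a6 was at 25.5, 25.6 and 25.1 FPKM in MacA-N and 392, 324 and 284 in MacB2-N (log2 difference 3.65 ± 0.36, adjusted p = 1.71e-07). The lactate exporter Slc16a3 was at 27.4, 16 and 25.8 FPKM in MacA-N and 213, 211 and 181 in MacB2-N (log2 difference 3.11 ± 0.21, adjusted p = 9.24e-10). Lactate dehydrogenase changed by subunit, with Ldha at 209.8, 173 and 193 FPKM in MacA-N and 75.5, 100.3 and 75.6 in MacB2-N (log2 difference -1.19 ± 0.19, adjusted p = 7.16e-05). Ldhb was at 0.838, 1.86 and 1.72 FPKM in MacA-N and 14.3, 9.12 and 16.2 in MacB2-N (log2 difference 2.52 ± 0.30, adjusted p = 2.34e-06). Gapdh and Pfkp were not called, with 95% intervals of -0.37 to 0.76 and -0.58 to 0.24. Oxidative phosphorylation had 5 of 74 genes lower and 0 higher (5 at an unadjusted p under 0.05), against 10.2% and 10.7% of all genes tested. These counts moved with single libraries: 5 genes were called higher without MacA-N replicate 2 and 5 without MacB2-N replicate 3, and 2 or 3 were called lower without any 1 of the 6 libraries. Ndufs5, a subunit of complex I, was at 75.9, 47.2 and 42.6 FPKM in MacA-N and 16.6, 14.8 and 11.1 in MacB2-N (log2 difference -1.86 ± 0.50, adjusted p = 0.00778), and Cox7b, of complex IV, was at 2231, 7508 and 3095 FPKM in MacA-N and 4972, 5596 and 1639.5 in MacB2-N (95% interval -0.94 to 0.81).

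Of 25 genes of the tricarboxylic acid cycle and pyruvate entry 4 were lower and 1 higher, against 10.2% and 10.7% of all genes tested. The gene called higher, the pyruvate dehydrogenase subunit Pdha1, was not called without MacA-N replicate 1 or 2 or MacB2-N replicate 1 or 2 (differences 0.76 to 1.17, adjusted p 0.0558 to 0.168). Idh3g, a subunit of isocitrate dehydrogenase, was at 196, 110 and 212 FPKM in MacA-N and 78.7, 58.9 and 70.1 in MacB2-N (log2 difference -1.26 ± 0.30, adjusted p = 0.00307). Pdk1, another kinase that restrains pyruvate oxidation, was at 40.05, 30.8 and 27.3 FPKM in MacA-N and 8.52, 5.67 and 15.6 in MacB2-N (log2 difference -1.71 ± 0.44, adjusted p = 0.00562). Citrate synthase, Cs, was not called (95% interval -0.61 to -0.04). Among other transporters Slc7a2, which carries arginine, was at 84.3, 80.6 and 80.5 FPKM in MacA-N and 0.295, 0.411 and 0.80 in MacB2-N (log2 difference -5.80 ± 0.31, adjusted p = 5.42e-11). Slc6a4, the serotonin transporter, was at 36.3, 41.9 and 44.5 FPKM in MacA-N and 0, 0.128 and 0.482 in MacB2-N (log2 difference -5.14 ± 0.27, adjusted p = 4.01e-11). Slc9a4, a sodium and proton exchanger, was at 45.8, 66.8 and 46.5 FPKM in MacA-N and 0.944, 0.535 and 1.07 in MacB2-N (log2 difference -4.86 ± 0.32, adjusted p = 9.89e-10). The solute carrier list as a whole gave 11 higher and 10 lower of 41.

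Immediate early genes, which respond within minutes to many stimuli, tissue digestion included, were called higher in 14 of 34 and lower in 1. Dusp1, a phosphatase of MAP kinases, was at 802, 1339.6 and 1391 FPKM in MacA-N and 4676, 3890.2 and 3079.8 in MacB2-N (log2 difference 1.74 ± 0.35, adjusted p = 0.000681). Dusp2 was at 1.13, 0.90 and 2.34 FPKM in MacA-N and 73.9, 58.3 and 62.2 in MacB2-N (log2 difference 4.78 ± 0.25, adjusted p = 2.94e-11). Nr4a2 was at 57.7, 63.6 and 119 FPKM in MacA-N and 301, 648 and 448 in MacB2-N (log2 difference 2.53 ± 0.33, adjusted p = 7.77e-06). Nr4a1 (2.40) and Egr2 (-4.34, the lower member), described above as transcription factors, are on this list too. Fos and Jun, the best known members, were not called, with 95% intervals of 0.18 to 1.45 and -0.11 to 0.79, and Fos passed at 1.01 without MacB2-N replicate 3. Levels of Jun were 359 ± 120.3 FPKM in MacA-N and 445 ± 88 FPKM in MacB2-N. The part of handling in the other results was not tested.

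Markers of other cells, which the gates do not name, were read in each library. Of 20 endothelial markers 3 were called higher and 2 lower, with 1 higher without MacA-N replicate 1 and none without MacB2-N replicate 3. Summed over the list, levels were 798 to 1095 FPKM in MacA-N and 433 to 1247 in MacB2-N. Car4, on both this list and that of alveolar macrophages, held 491 FPKM of the MacA-N sum on average. No fibroblast marker was called by limma (4 were higher and 0 lower at an unadjusted p under 0.05), with 1 called higher without MacA-N replicate 3 or MacB2-N replicate 2, and the sums were 86.3 to 174 and 192 to 488 FPKM. Alveolar epithelial markers summed to 228 to 301 and 329 to 807 FPKM, with MacB2-N replicate 3 again the highest, and Epcam, an epithelial adhesion gene, was higher in MacA-N, at 14.5, 25.5 and 15.5 FPKM in MacA-N and 1.02, 0.088 and 0.331 in MacB2-N (log2 difference -3.73 ± 0.30, adjusted p = 1.02e-08). Airway markers varied widely among libraries, led by the club cell secretoglobin Scgb1a1, at 561, 5198 and 2162 FPKM in MacA-N and 10211, 7856 and 2834 in MacB2-N, and 5 of 9 were called higher. Their groups overlapped in sum (821 to 5549 and 3165 to 11035 FPKM). Without MacA-N replicate 1 or MacB2-N replicate 1 none was called, and without MacA-N replicate 3 or MacB2-N replicate 2 or 3 the count was 1, 2 and 3. T-cell markers summed to 5.34 to 11.1 and 11.8 to 33.6 FPKM, and NK-cell markers to 3.11 to 4.66 and 17 to 25.2. Neutrophil markers summed to 98.5 to 208 and 372 to 473 FPKM, with 5 of 17 higher and 1 lower, and 3 higher without MacA-N replicate 1 or MacB2-N replicate 1 or 2. Ly6g and Camp, a granule gene of neutrophils, were listed at 0 in all 6 libraries, while Csf3r, a receptor that monocytes share, was at 47.9, 31.8 and 57.3 FPKM in MacA-N and 195, 216 and 207 in MacB2-N (log2 difference 2.19 ± 0.27, adjusted p = 3.44e-06). Markers of conventional dendritic cells summed to 588 to 828 and 1043 to 1886 FPKM, mostly from H2-Ab1, with 7 of 15 higher and 2 lower. Of their defining genes Xcr1 was below the filter on level and Clec9a was not called, while Cd209a, also found on some monocytes, was at 0.334, 0.531 and 0.668 FPKM in MacA-N and 15.8, 25.2 and 20.1 in MacB2-N (log2 difference 3.81 ± 0.34, adjusted p = 5.55e-08). The defining eosinophil genes Epx, Prg2 and Prg3 were listed at 0 in all 6 libraries. Immunoglobulin Ighm was at 7.75, 6.9 and 9.15 FPKM in MacA-N and 179, 202 and 168 in MacB2-N (log2 difference 4.37 ± 0.29, adjusted p = 9.17e-10), and B-cell markers summed to 54.5 to 61.9 and 203 to 225 FPKM. The part of these markers in the results above was not tested.

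**Figure D4:**
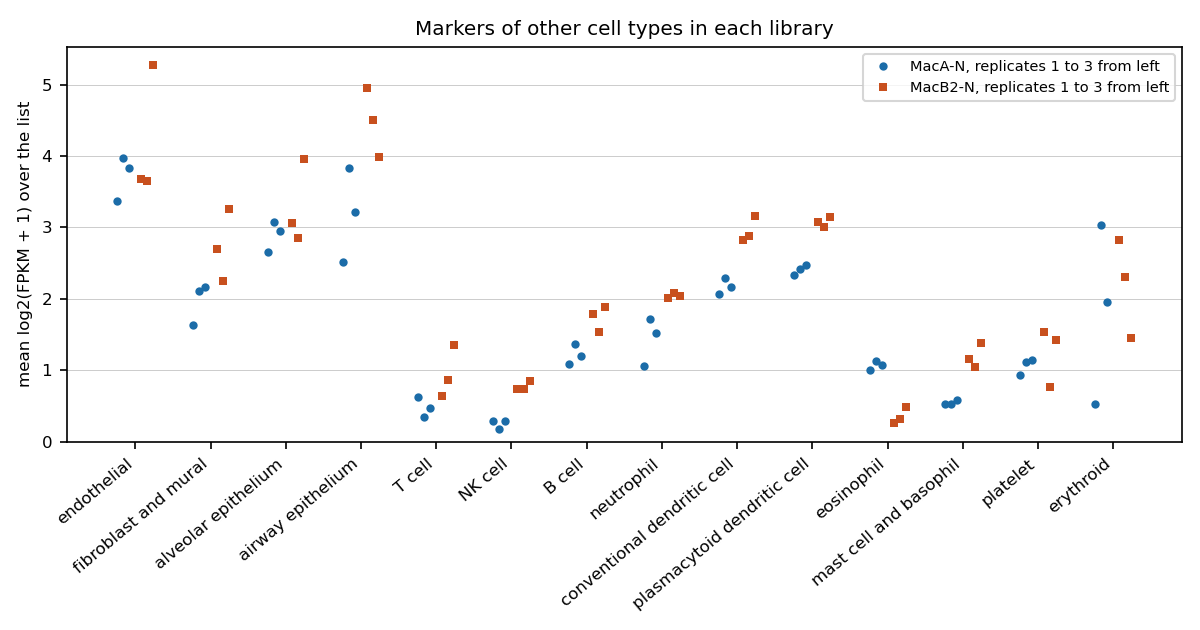
Mean log2(FPKM + 1) over each list of markers of another cell type (y axis) in the 3 MacA-N libraries (blue circles) and the 3 MacB2-N libraries (orange squares), replicates 1 to 3 from the left. MacB2-N replicate 3 is the highest library for endothelial, fibroblast and alveolar epithelial markers, and the erythroid and airway markers spread widely within both groups.

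The same populations sorted 2 weeks after tumour cell injection share no library with the naive ones. MacB2-2wk against MacA-2wk called 3040 genes (17.7%), 1642 higher (9.57%) and 1398 lower (8.15%). Of the 1838 genes higher in MacB2-N, 1080 (58.8%, and 65.8% of those at 2 weeks) were also higher at 2 weeks and none was called lower. Of the 1745 genes lower, 1011 (57.9%, and 72.3% of those at 2 weeks) were also lower, and 3 were higher at 2 weeks (the chemokine gene Cxcl3, the orphan receptor gene Gpr171 and the small RNA gene Gm25262). The naive call of Cxcl3 was lost without MacA-N replicate 2 or 3 or MacB2-N replicate 1 (differences -1.74 to -1.43, adjusted p 0.0539 to 0.0916), and that of Gm25262, which is listed at 0 throughout MacB2-N, without any library but MacA-N replicate 1 (adjusted p 0.069 to 0.198). The sign was the same in 95.9% of the higher and 95.9% of the lower genes. Across the 17156 genes the differences had a Pearson correlation of 0.702, given as a description over genes. The 2-week libraries came from the left lobe and the naive ones from all lobes, so tumour and lobe cannot be told apart in a difference between the comparisons.

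The difference between the 2 comparisons was tested directly and called in 38 genes (0.221%), in 23 of them higher (0.134%) and in 15 lower (0.0874%) at 2 weeks, while 1692 had an unadjusted p under 0.05. Of the 38, 36 were called in the naive comparison. The number was 25, 19 and 23 without MacA-N replicates 1, 2 and 3, 25 and 21 without MacB2-N replicates 1 and 2, 21 and 17 without MacB2-2wk replicates 1 and 3, and 57 without MacA-2wk replicate 2, so this set depended on single libraries. C1qa moved from 4.43 to 1.05 (2 weeks minus naive -3.38, adjusted p = 0.00864), and its MacA mean was 0.836 ± 0.442 FPKM in naive lung and 39.6 ± 23.2 FPKM at 2 weeks. C1qc, another C1q chain, had a like shift (-3.29, adjusted p = 0.00368). Gpnmb moved from -5.89 to -2.11 (3.78, adjusted p = 0.0459), with MacB2 means of 1.55 ± 0.572 and 42.5 ± 21.8 FPKM. Ube2c moved from -3.85 to -0.84 (3.02, adjusted p = 0.00864), with MacB2 means of 1.47 ± 0.871 and 25.1 ± 6.47 FPKM. In C1qa the shift lay mostly in MacA, and in Gpnmb and Ube2c mostly in MacB2.

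**Figure D5:**
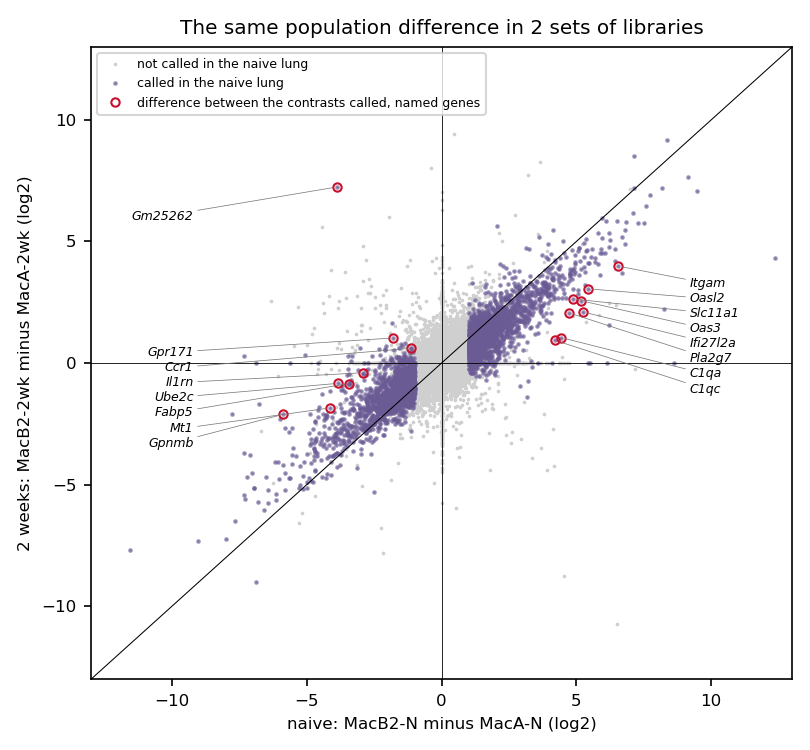
For each tested gene, MacB2-N minus MacA-N (x axis, log2) against MacB2-2wk minus MacA-2wk (y axis, log2), with the line of equal differences. Purple points were called in the naive lung, and the 16 circled genes are those named in the text whose 2 differences were called as unequal, of which 3 (Ccr1, Gpr171 and Gm25262) have opposite signs and the other 13 lie nearer to 0 at 2 weeks. Naming genes largely by their naive difference favours such a shift towards 0.

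MacB1-N and MacB2-N are the 2 CD11b+ populations of the naive lung. Both were set against the same MacA-N libraries, so their difference was read only from the direct comparison of the 2. Replicates 1, 2 and 3 of both were run on lanes 2, 3 and 7. It called 893 genes (5.21%), 292 higher (1.70%) and 601 lower (3.50%) in MacB2-N. Of the 1838 genes higher in MacB2-N than in MacA-N, 180 were also above MacB1-N and 84 below it, and of the 1745 lower genes 192 were below MacB1-N and 18 above it. The same MacB2-N libraries enter both comparisons, which by itself favours calls in the same direction, so these counts are only a description. Levels above both other populations were found for Thbs1, at 104 ± 74 FPKM in MacB1-N (log2 difference 3.54, adjusted p = 0.000313), F13a1, at 9.95 ± 2.61 FPKM (log2 difference 3.82, adjusted p = 2.61e-08), and Slfn1, at 9.34 ± 3.23 FPKM in MacB1-N and 96.4 ± 14.6 FPKM in MacB2-N (log2 difference 3.27, adjusted p = 4.51e-07). A level between those of MacA-N and MacB1-N was found for Pglyrp1, a peptidoglycan-binding protein, at 2.6 ± 1.41 FPKM in MacA-N, 149 ± 54.4 FPKM in MacB2-N and 613 ± 228 FPKM in MacB1-N (log2 difference -2.04, adjusted p = 0.0161). Ceacam1, an adhesion molecule, was at 4.18 ± 1.19, 199.5 ± 35.7 and 375 ± 117 FPKM, and the direct difference did not pass (adjusted p = 0.195).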

How the data were processed

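RNA was sequenced from sorted lung macrophages of 24 libraries in 8 groups of 3. The authors aligned reads with TopHat2 version 2 to mm10 and estimated FPKM per gene with Cufflinks 2.0.2, per the submitters' processing notes, which also name FastQC. The labels' protocols describe perfused and digested lungs, red cell lysis, removal of doublets and dead cells in the sort, and a NuGen Ovation FFPE library kit with mouse ribosomal RNA oligos. No source used here gives the use of strand in counting, so overlapping genes and near-identical copies are uncertain. The deposited FPKM table holds 37979 genes, of which 14133 are 0 in every library. Its listed loci do not match GRCm38, so positions and promoters were taken by gene identifier and symbol from GENCODE M21 and RefSeq (both GRCm38).

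The 17156 genes that averaged 1 FPKM or more in any group were fitted on log2(FPKM + 1) with limma 3.58.1 in R 4.3.3. The fit used all 24 libraries, 8 group means and a variance trend, which left 16 residual degrees of freedom. p-values were adjusted by Benjamini-Hochberg over all genes tested, and every adjusted p comes from this fit or, where a library is left out, from its refit. The scaling by kilobase does not remove differences in RNA makeup between libraries, which the rescaled fits address. Summaries used Python 3.11.15, pandas 2.3.3 and numpy 2.4.6. The fit was tested on simulated data with 100 genes changed 2-fold and 100 changed 4-fold. An adjusted p under 0.05 recovered 39 and 77 of them, with 8 false calls among 17156 genes. Most of the 2-fold changes thus went uncalled in that setting. Far fewer genes changed there than were called between MacB2-N and MacA-N, which makes an adjusted p harder to pass. Recovery also did not ask for a 2-fold difference, so these shares do not carry over to the real comparison. A 2-fold change can still go uncalled here. The labels call replicates independent experiments of pooled mice, so p-values measure the spread between such pools.

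The gene lists and members were chosen with earlier results of these data known. Genes were named by rule: the sorting markers, Csf1r, Ccr2 and Cx3cr1, the 12 highest and 12 lowest called protein-coding genes at 20 FPKM or more, up to 6 called genes per list and direction at 5 FPKM or more, called genes against their list, and genes not called at 20 FPKM or more in both groups. Paralogs and partners of these, and further list members, were added after their values were seen. Some genes that the rule names are not reported here. Alternatives were another pseudocount, filter, scaling, trend, set of libraries, a replicate block, and each library left out.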

Additional observations from a re-analysis of the deposited data

Results flagged for a closer look

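The change from naive to 2-week lung in the difference between MacB2 and MacA passed its own test in limma (adjusted p under 0.05 over all 17156 genes, difference of at least 2-fold) for 16 genes named here. In 13 the difference kept its sign and was nearer to 0 at 2 weeks, in 3 it had the opposite sign, and the cause was not tested. Tumour and lobe cannot be told apart in this change. The genes were named largely for their naive difference, which the test subtracts, so the choice itself favours a shift towards 0.

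Genes higher in MacB2-N whose difference was smaller at 2 weeks were C1qa (-3.38, adjusted p = 0.00864), C1qc (-3.29, adjusted p = 0.00368), Ifi27l2a (-3.16, adjusted p = 0.00864), Pla2g7 (-2.67, adjusted p = 0.0404), Oas3 (-2.60, adjusted p = 0.00864), Itgam (-2.58, adjusted p = 0.0368), Oasl2 (-2.39, adjusted p = 0.0368) and Slc11a1 (-2.25, adjusted p = 0.0396), each given as 2 weeks minus naive on the log2 scale. For the αM integrin Itgam, MacA means were 2.3 ± 2.08 FPKM in naive lung and 17.3 ± 7.11 FPKM at 2 weeks (SD, n = 3), and MacB2 means were 280.5 ± 75.1 and 274 ± 15.8 FPKM. For Oasl2, an antiviral effector, the MacA means were 4.26 ± 2.64 and 25 ± 5.43 FPKM and the MacB2 means 212 ± 45.6 and 214 ± 39.5 FPKM.

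Genes lower in MacB2-N whose difference shrank were Mt1 (2.30, adjusted p = 0.0459), Il1rn (2.52, adjusted p = 0.0185), Fabp5 (2.59, adjusted p = 0.0407), Ube2c (3.02, adjusted p = 0.00864) and Gpnmb (3.78, adjusted p = 0.0459). Il1rn had MacB2 means of 65.3 ± 16 FPKM in naive lung and 465 ± 149.6 FPKM at 2 weeks, against MacA means of 500.3 ± 128 and 595 ± 71.9 FPKM.

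The sign turned from lower to higher in 3 genes. The chemokine receptor Ccr1 (1.72, adjusted p = 0.0308) had log2 differences of -1.12 in naive lung and 0.61 at 2 weeks. The 2-week one was not called by itself (adjusted p = 0.0579). The naive one was under 2-fold without MacA-N replicate 2 (-0.97) and without MacB2-N replicate 3 (-0.95). The orphan receptor Gpr171 (2.82, adjusted p = 0.0185) had log2 differences of -1.79 and 1.03. For the small RNA gene Gm25262 the shift in log2(FPKM + 1) was 11.14 (adjusted p = 0.0157), and no fold is given, since it is listed at 0 in MacA-N replicate 1, in all MacB2-N libraries and in all MacA-2wk libraries.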

How the results depend on the processing

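With a pseudocount of 5 FPKM, 2101 genes were called between MacB2-N and MacA-N and 1812 between MacB2-2wk and MacA-2wk, with fewer calls among low genes by construction. The naive count was within 1.5 times of 3583 under every other alternative, and leaving out 1 library gave 3231 to 3569. Quantile normalization called 1660 higher and 1869 lower, and rescaling to the upper quartile 1703 and 1858. The 2-week count was 2735 to 3544 without 1 library. The 38 genes whose naive and 2-week differences were unequal became 23 with no filter on level, 89 with a pseudocount of 0.1 FPKM, 19 with 5 FPKM, 24 with a replicate block and 17 to 57 without 1 library, and the cause was not tested. Same-numbered libraries of MacA-N and MacB2-N did not deviate together (correlations of -0.0310, 0.0225 and -0.0061 across genes), so the numbers were not treated as pairs. With the replicate block 3587 and 3039 genes were called in the naive and 2-week comparisons. Of 299 genes named here, the replicate block changed the call of none, 11 lost and 2 gained their call under any alternative, and none changed direction while called. Without absolute depth, no limit can be set on genes listed at 0.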

Other observations

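Families outside the comparisons above were read by the same fit. Of 10 tested Ms4a genes, which encode membrane proteins of leukocytes, 4 were higher and 1 lower in MacB2-N. Ms4a4c was at 0.655, 0.419 and 2.48 FPKM in MacA-N and 503, 521 and 295 in MacB2-N (log2 difference 7.73 ± 0.44, adjusted p = 1.17e-10) and Ms4a6c at 9.58, 19 and 15.5 FPKM in MacA-N and 433, 491 and 333 in MacB2-N (log2 difference 4.77 ± 0.22, adjusted p = 5.89e-12), and Ms4a4b is a close copy that can share reads. Ms4a6d was not called (95% interval -0.27 to 0.65). Ms4a8a was the lower member, at 114, 231 and 143 FPKM in MacA-N and 45, 68 and 24.2 in MacB2-N (log2 difference -1.86 ± 0.31, adjusted p = 0.000123). In the Ly6 family, Ly6e was at 284, 325 and 289 FPKM in MacA-N and 1798, 1649.9 and 1564 in MacB2-N (log2 difference 2.48 ± 0.18, adjusted p = 2.76e-09) and Ly6a was not called (1.37 ± 0.62).

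Receptors of the SLAM family, which bind each other between leukocytes, went both ways. Slamf7 was at 0.234, 0.0983 and 0.353 FPKM in MacA-N and 24.3, 25.4 and 31.8 in MacB2-N (log2 difference 4.51 ± 0.29, adjusted p = 6.09e-10) and Slamf8 at 0.327, 0 and 0.249 FPKM in MacA-N and 28.7, 19.8 and 23.6 in MacB2-N (log2 difference 4.39 ± 0.23, adjusted p = 3.58e-11), while Slamf9 was at 85.1, 130.2 and 98.8 FPKM in MacA-N and 9.57, 5.4 and 5.93 in MacB2-N (log2 difference -3.74 ± 0.26, adjusted p = 1.48e-09). Ly9 was not called (95% interval -0.99 to 0.70). The sialic acid receptors Siglec1 and Cd33 were lower (-2.36 and -1.82).

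Some protein-coding genes with a level in every library of a group are listed at 0 throughout the other, and these examples were chosen after their values were seen. Ffar2, a receptor for short-chain fatty acids, held 10.5, 9.77 and 9.71 FPKM in MacA-N. In the other direction, Tarm1, a receptor of myeloid cells, held 22.3, 36.7 and 12 FPKM in MacB2-N and is listed at 0 in MacA-N. A value of 0 in these files can be a failed estimate, so no fold is given.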
